A study of Mus musculus with 6 samples.

Results

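A set of 10 genes of acute-phase and antimicrobial proteins were followed in carcinoma cells of mouse skin: Saa1, Saa2, Saa3, Lcn2, Slpi, Wfdc12, Defb1, Defb3, Camp and Pglyrp1. They are the 10 rows of the deposited table, out of 55481, that carry these symbols, and 0 of the symbols were repeated. The cells came from squamous cell carcinomas induced in mouse skin with DMBA, a carcinogen, followed by TPA, a tumour promoter. A pair of libraries held cells with high Itga6 (integrin alpha 6) and CD80, called tumour stem-like by the series text (here Itga6hi CD80pos). The other pair held cells with low Itga6 and no CD80, called differentiated cancer cells there (here Itga6low CD80neg). Cells sorted as Itga6hi CD80neg, also part of the study, were not analysed here. Strain, age, sex, gates beyond the 2 markers, and whether the libraries came from separate animals are not given in the sources used here, so a p-value here speaks only to how much these 4 libraries vary, which may be technical.

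Acute-phase proteins are secreted in quantity when cytokines such as interleukin 6 and interleukin 1 signal tissue damage or infection. Serum amyloid A proteins are lipid-binding members of that response. Saa1 and Saa2 are made mainly by the liver, and Saa3 in other tissues. Antimicrobial proteins of skin act on microbes directly, by breaking membranes (defensins, cathelicidin), binding cell wall (Pglyrp1) or withholding iron (Lcn2). Several are also stored in neutrophil granules, among them Camp, Lcn2 and Pglyrp1. Slpi, an inhibitor of the neutrophil proteinases elastase and cathepsin G, and Wfdc12 share the whey acidic protein (WAP) fold.

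RNA with polyA tails was sequenced, and values are TPM, shares of a library's transcripts corrected for transcript length, so levels can be set beside each other between genes. TPM keep no record of depth, which is therefore unknown. Haemoglobin genes held 70.9% and 50.4% of the total in the Itga6low CD80neg libraries, and 0.0185% and 0.00621% in the Itga6hi CD80pos libraries. Keratin genes held 8.39% and 7.499% in Itga6hi CD80pos and 0.517% and 1.53% in Itga6low CD80neg. Itga6 itself stood at 178 and 339 TPM in Itga6hi CD80pos against at most 1.65 TPM in Itga6low CD80neg, and it was higher under every scaling. Cd80 had 6.24 and 1.89 TPM in Itga6hi CD80pos and 0.642 and 0.563 TPM in Itga6low CD80neg, a call (limma adjusted p = 0.0381) that was lost under the 3 other scalings described below (0.270 with median-of-ratios). Differences were tested with limma on log2(TPM + 1) and are given as Itga6hi CD80pos minus Itga6low CD80neg, with a Benjamini-Hochberg adjusted p under 0.05 as the call. The pseudocount understates the change of genes at low levels. Over the 13474 genes tested, the log2 fold change had a median of 1.27 on the deposited values. It was 0.24 after median-of-ratios scaling, 0.27 after quantile normalization and 0.16 with haemoglobin genes left out of the total. Each call tests a change against 0 and not against that median. A higher call on the deposited values therefore need not exceed the median gene. Calls higher and lower numbered 7686 and 1277 on the deposited values, 1372 and 1610, 1448 and 1517, and 1040 and 1460 under those 3 scalings in the same order.

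Saa3, Wfdc12 and Saa1 were lower in Itga6hi CD80pos, and 0 members were called higher. Of the 10 members, 8 reached 1 TPM in at least 2 libraries and were tested, and Saa2 and Camp did not. Among all tested genes 9.48% were called lower and 57.0% higher. Saa1 and Saa3 passed the filter on low values through the Itga6low CD80neg libraries alone, so they had to differ in order to be tested. The same 3 were called lower under each of the 3 other scalings, where 11.9%, 11.3% and 10.8% of tested genes were called lower and 10.2%, 10.7% and 7.72% higher. Lcn2, Slpi, Defb1, Defb3 and Pglyrp1 were not called on the deposited values or under any of these scalings. With limma, 0 members were higher at an unadjusted p under 0.05 too (1 without Itga6hi CD80pos replicate 1). A fit with the replicate number as a block called 4 members lower (10.8% of all genes) and 1 higher (59.7%), adding Pglyrp1 and Lcn2. That fit has fewer residual degrees of freedom. It gave Saa3 a larger SE than the main fit (0.51 against 0.29), and smaller ones to Lcn2 (0.54 against 0.89) and Pglyrp1 (0.40 against 0.99). The limma adjusted p of Saa3 was nonetheless far smaller there (1.27e-37 against 0.00162). So small a p-value cannot measure how these few libraries vary, and the added calls are therefore weak.

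**Figure D1:**
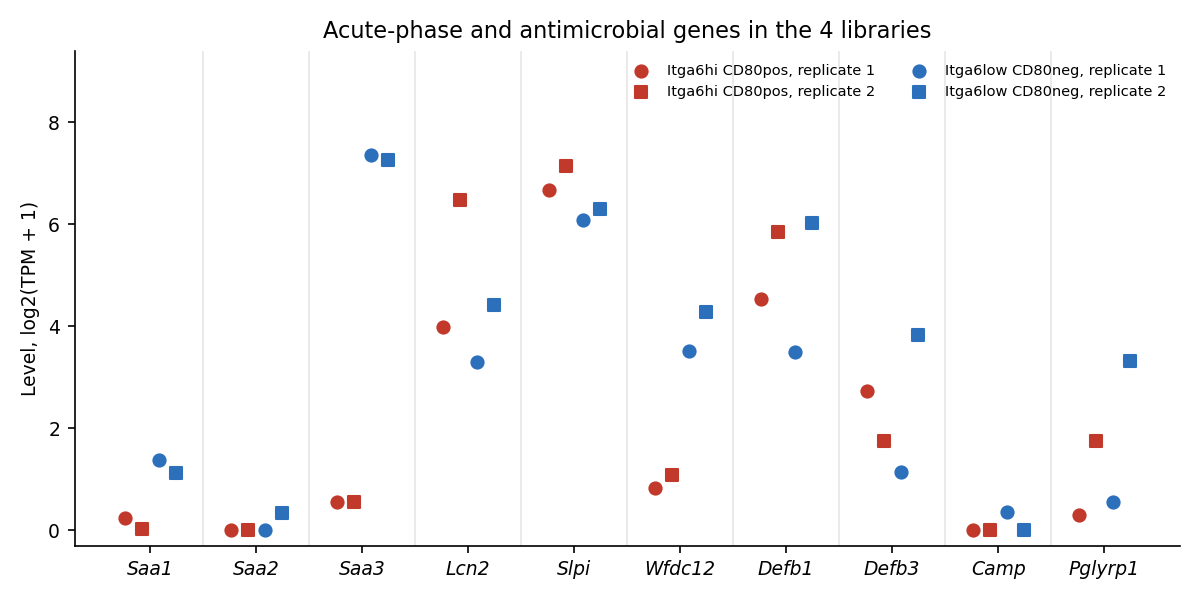
Level of each of the 10 members as log2(TPM + 1) on the vertical axis, with 1 point per library (red: Itga6hi CD80pos, blue: Itga6low CD80neg, circle: replicate 1, square: replicate 2). Saa3, Wfdc12 and Saa1 lie lower in both Itga6hi CD80pos libraries, Slpi lies higher in both, and the other 4 tested members overlap between groups.

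Saa3 showed the widest difference of the tested members. It stood at 0.471 and 0.460 TPM in the Itga6hi CD80pos libraries and at 162 and 151 TPM in the Itga6low CD80neg libraries. On the deposited values the libraries of each group lay close together and the groups did not overlap. Its log2 fold change was -6.75 ± 0.29 (SE, limma adjusted p = 0.00162, n = 2 libraries each). Only 34 of the 13474 tested genes, Saa3 included, were called lower with a fold change this low. By level Saa3 ranked 294 and 450 among all genes in Itga6low CD80neg, and 14238 and 14365 in Itga6hi CD80pos. The fold change was -7.53 after median-of-ratios scaling (adjusted p = 0.00171) and -8.14 with haemoglobin genes left out (adjusted p = 0.00349). With haemoglobin genes left out, Saa3 had 559 and 305 TPM in Itga6low CD80neg, farther apart than on the deposited values. It had 0.471 and 0.460 TPM in Itga6hi CD80pos there. Leaving out Itga6hi CD80pos replicate 1 ended the call (adjusted p = 0.0508), and in that fit limma called 0 genes of the whole table (4442 higher and 1033 lower at an unadjusted p under 0.05). Fibroblast markers were lower along with Saa3, 15 of 16 of them, and red blood cell markers, 8 of 8. Of these, 6 fibroblast and 4 red blood cell markers passed the filter on low values through Itga6low CD80neg alone. Summed markers of monocytes and macrophages, T and B cells, and mast cells were also lower in both Itga6hi CD80pos libraries, at far smaller sums. Their part in the Saa3 difference was not tested. In bulk libraries fewer cells of a type and less RNA per cell cannot be told apart.

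Saa1 was low in all 4 libraries. It stood at 0.183 and 0.0131 TPM in Itga6hi CD80pos and at 1.61 and 1.17 TPM in Itga6low CD80neg, with no overlap. Its log2 fold change was -1.12 ± 0.27 (SE, limma adjusted p = 0.0172). The size depended on the settings, at -2.10 with haemoglobin genes left out, -3.04 with a pseudocount of 0.1 TPM and -0.33 with 5 TPM, with the call kept in each. This call was lost without either Itga6hi CD80pos library (adjusted p = 0.0762 and 0.0841) and with no filter on low values (0.0573). Saa2 was listed at 0 in 3 libraries and at 0.264 TPM in Itga6low CD80neg replicate 2, so it was not tested. Saa4, a constitutive family member, was listed at 0 in 3 libraries and at 0.0102 TPM in Itga6low CD80neg replicate 1. Saa3 was thus far above the other serum amyloid A genes in Itga6low CD80neg. Saa1 and Saa2 are near copies: of the 31-base words in GENCODE M21 transcripts of Saa1, 46.8% also occur in another gene, most of them in Saa2, so a split of reads between the pair is uncertain. Saa3 shares 7.56% of its words with other genes.

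Saa1, Saa2 and Saa3 lie close together on chromosome 7, with Saa4 between Saa3 and Saa1 (gene positions are GENCODE M21 on GRCm38). Saa3 spans 46711998 to 46715700 on the minus strand, Saa1 46740497 to 46742980 on the minus strand and Saa2 46751790 to 46754313 on the plus strand. The gap from Saa3 to Saa1 is 24.8 kb and that from Saa1 to Saa2 is 8.81 kb. Promoters are shown for the 3 members called lower and for Lcn2, which was not called, because C/EBP factors are known regulators of acute-phase genes. Each is the RefSeq sequence of GRCm38.p6 on the gene's strand, 5′ to 3′, from 250 bases before the transcript start to 50 after. Capitals mark the C/EBP core letters TTGCNNAA on either strand. They lie in chr7:46715627-46715926 (minus strand) for Saa3, chr7:46742931-46743230 (minus) for Saa1, chr2:164190509-164190808 (minus) for Wfdc12 and chr2:32387690-32387989 (minus) for Lcn2.
Saa3: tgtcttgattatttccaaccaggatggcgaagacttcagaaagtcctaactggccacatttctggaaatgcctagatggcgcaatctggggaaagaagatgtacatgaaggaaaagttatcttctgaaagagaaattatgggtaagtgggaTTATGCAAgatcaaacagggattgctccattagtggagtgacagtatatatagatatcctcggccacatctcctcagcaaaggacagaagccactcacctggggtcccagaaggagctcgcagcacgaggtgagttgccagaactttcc
Saa1: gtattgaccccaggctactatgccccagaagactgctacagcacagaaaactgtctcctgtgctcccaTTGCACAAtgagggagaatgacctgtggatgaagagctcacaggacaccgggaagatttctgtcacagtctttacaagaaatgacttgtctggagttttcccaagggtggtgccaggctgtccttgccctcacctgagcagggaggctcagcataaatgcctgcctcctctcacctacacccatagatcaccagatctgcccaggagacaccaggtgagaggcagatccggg
Wfdc12: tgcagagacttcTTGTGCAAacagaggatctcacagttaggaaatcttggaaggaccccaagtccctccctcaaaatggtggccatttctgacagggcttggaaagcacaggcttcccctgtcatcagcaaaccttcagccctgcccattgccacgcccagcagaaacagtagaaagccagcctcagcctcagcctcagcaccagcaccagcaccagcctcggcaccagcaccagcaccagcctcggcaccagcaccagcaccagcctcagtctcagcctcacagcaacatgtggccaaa
Lcn2: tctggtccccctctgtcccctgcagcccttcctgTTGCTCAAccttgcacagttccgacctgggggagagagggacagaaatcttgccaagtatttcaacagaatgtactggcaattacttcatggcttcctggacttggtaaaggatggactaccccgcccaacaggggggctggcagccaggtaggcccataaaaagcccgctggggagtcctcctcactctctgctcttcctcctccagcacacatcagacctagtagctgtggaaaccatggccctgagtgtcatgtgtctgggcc

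The C/EBP letters occurred in 7 of the 9 member promoters found in the RefSeq table, those of Saa1, Saa2, Saa3, Lcn2, Slpi, Wfdc12 and Defb3, and in 10.8% of 32851 promoters of the same length. These letters were chosen with the Saa1 and Saa3 sequences in view, so the share is a description only. The motif was present in the 3 members called lower and equally in Lcn2, Slpi and Defb3, which were not called. In Saa3 it lay at positions -99 to -92 from the start, and in Saa1 at -182 to -175. The NF-kB letters, 3 G, any 5 bases and 2 C on either strand, were found in 7 of 9 member promoters and in 50.8% of all. They were not found in the windows of Saa3 and Slpi. The STAT letters TTCNNNGAA and the TATA letters TATAAA, on either strand, were in 0 of the 9, against 8.3% and 13.6% of all promoters. No match of one motif overlapped a match of another. The windows of Saa1 and Saa2 were 95.7% identical over 300 bases after alignment, and those of Saa1 and Saa3 were 56.7% identical. Defb1 had no entry.

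**Figure D2:**
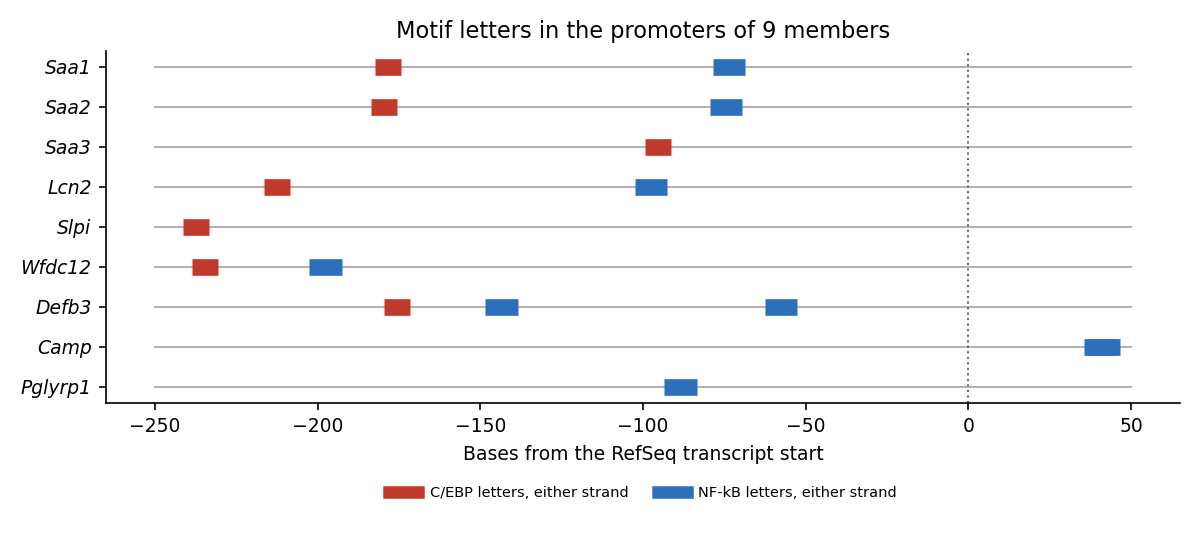
Position of C/EBP letters (red) and NF-kB letters (blue) in the promoters of 9 members, in bases from the RefSeq transcript start (dotted line). C/EBP letters lie in 7 of the 9 promoters, at positions -241 to -92, in called and uncalled members alike.

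Wfdc12, a small WAP protein of epithelia, was lower in Itga6hi CD80pos. It stood at 0.783 and 1.13 TPM there and at 10.4 and 18.4 TPM in Itga6low CD80neg. The groups did not overlap. The log2 fold change was -2.93 ± 0.37 (SE, limma adjusted p = 0.00523), and -4.26 with haemoglobin genes left out of the total (adjusted p = 0.00754). With a pseudocount of 5 TPM it was -1.67. The call was lost without either Itga6hi CD80pos library (adjusted p = 0.0762 and 0.0622). Wfdc12 (chromosome 2, 164189231 to 164190608, minus strand) lies within the bounds of the gene A730032A03Rik on the other strand, which was at most 0.163 TPM in any library. Whether the authors' counting used strand is not stated.

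Slpi went the other way on deposited values and did not pass the test. It stood at 101 and 141 TPM in Itga6hi CD80pos and at 66.9 and 77.5 TPM in Itga6low CD80neg. The groups did not overlap, as was the case in the same direction for 73.5% of all tested genes (for lower genes, 12.9%). Its log2 fold change of 0.72 ± 0.39 (SE, limma adjusted p = 0.153) lay below the 1.27 of the median gene. With haemoglobin genes left out, Slpi had 101 and 141 TPM in Itga6hi CD80pos and 230.1 and 156 TPM in Itga6low CD80neg, and the log2 fold change turned to -0.67 (adjusted p = 0.196). Slpi lies 163 kb from Wfdc12 on chromosome 2 (164354070 to 164389095, minus strand). Slpi was the most abundant member in Itga6hi CD80pos, and Wfdc12 was near 1 TPM there. Of the other WAP genes in the antimicrobial list, Wfdc2 was higher in Itga6hi CD80pos, at 9.70 and 7.05 TPM against 0.518 and 0 TPM (log2 fold change 2.91, limma adjusted p = 0.00485). Wfdc2 missed the threshold with haemoglobin genes left out (adjusted p = 0.0540). Wfdc5, chosen after its values were seen, was not called on deposited values (1.12 and 1.49 TPM in Itga6hi CD80pos, 2.40 and 3.97 TPM in Itga6low CD80neg, adjusted p = 0.0617). It was called lower under the 3 other scalings (adjusted p = 0.0233, 0.0407 and 0.0298).

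Lcn2, the siderophore-binding lipocalin, was not called. It stood at 14.9 and 88.0 TPM in Itga6hi CD80pos and at 8.85 and 20.5 TPM in Itga6low CD80neg. The groups overlapped, and Itga6hi CD80pos replicate 2 was far above the other 3 libraries. The log2 fold change of 1.37 ± 0.89 (SE, limma adjusted p = 0.214) was close to that of the median gene. Without Itga6hi CD80pos replicate 2 it was 0.13 (adjusted p = 0.894), and without replicate 1 of that group it was 2.61 (adjusted p = 0.0958). It was 0.04 with haemoglobin genes left out of the total (adjusted p = 0.973). Lcn2, on chromosome 2 (32384633 to 32388252, minus strand), shared 0 of its 31-base words with other genes.

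The beta-defensins, cationic peptides of epithelia, were not called. Defb1 stood at 22.2 and 56.9 TPM in Itga6hi CD80pos and at 10.3 and 64.0 TPM in Itga6low CD80neg. Defb3 had 5.63 and 2.39 TPM in Itga6hi CD80pos and 1.22 and 13.3 TPM in Itga6low CD80neg. For both genes the Itga6low CD80neg libraries bracketed the Itga6hi CD80pos ones. The log2 fold changes were 0.44 ± 0.92 for Defb1 (SE, limma adjusted p = 0.692) and -0.25 ± 0.91 for Defb3 (0.820). The sign of Defb1 turned under each of the 3 other scalings, to between -0.78 and -0.91, with no call. The antimicrobial list held 3 more tested defensins, Defb4, Defb6 and Defb14, and 0 of them were called. Defb6, chosen like Defb14 after its values were seen, had 74.0 and 242 TPM in Itga6hi CD80pos and 0.332 and 33.5 TPM in Itga6low CD80neg (log2 fold change 4.32, adjusted p = 0.0544). Defb14 had 104 and 159.8 TPM in Itga6hi CD80pos and 49.6 and 221 TPM in Itga6low CD80neg (adjusted p = 0.755). Defb1 (21776599 to 21795185) and Defb3 (19293360 to 19295291) lie on the plus strand of chromosome 8, 2481 kb apart.

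Pglyrp1 and Camp, genes of neutrophil granule proteins, were low in most libraries. Pglyrp1, which binds bacterial peptidoglycan (chromosome 7, 18871331 to 18890459, plus strand), had 0.228 and 2.38 TPM in Itga6hi CD80pos and 0.462 and 8.92 TPM in Itga6low CD80neg. The groups overlapped, with a log2 fold change of -0.90 ± 0.99 (SE, limma adjusted p = 0.446). Camp, the cathelicidin gene of the mouse (chromosome 9, 109847379 to 109849617, minus strand), was listed at 0 in 3 libraries and at 0.291 TPM in Itga6low CD80neg replicate 1, and was not tested. Of 18 neutrophil markers, 6 were tested, of which 1 was called lower and 0 higher. Among all tested genes 9.48% were called lower and 57.0% higher. The granule genes Mpo, Elane, Ltf and Ngp were each under 0.1 TPM in all 4 libraries. Untested Csf3r had 0.0129 and 0.0201 TPM in Itga6hi CD80pos and 1.66 and 0.924 TPM in Itga6low CD80neg. Untested Mmp8, at most 0.196 TPM, was also higher in both Itga6low CD80neg libraries. Ceacam10, at most 0.0811 TPM, was higher in both Itga6hi CD80pos libraries, and Cd177, Fcnb and Chil3 did not separate the groups. These genes from Csf3r on were named after their values were seen. Ly6g was listed at 0 in 3 libraries and at 0.348 TPM in Itga6low CD80neg replicate 2. Retnlg, a neutrophil marker chosen after its values were seen, was at 9.75 TPM in that same library and at 0, 0 and 0.340 TPM in the others. S100a9, which keratinocytes make too, was the most abundant of the list, at 610.5 and 410 TPM against 363 and 1588 TPM. The list without S100a8, S100a9 and Mmp9 summed to 6.53 and 10.9 TPM in Itga6hi CD80pos and to 23.1 and 31.3 TPM in Itga6low CD80neg. Il1r2, the marker called lower and named after its values were seen, made up much of that sum. It had 4.56 and 3.37 TPM in Itga6hi CD80pos and 18.7 and 11.5 TPM in Itga6low CD80neg. Cxcr2 and Stfa2l1, the other tested markers in that sum and named likewise, overlapped between the groups. The part of neutrophil RNA in Pglyrp1 was not tested.

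**Figure D3:**
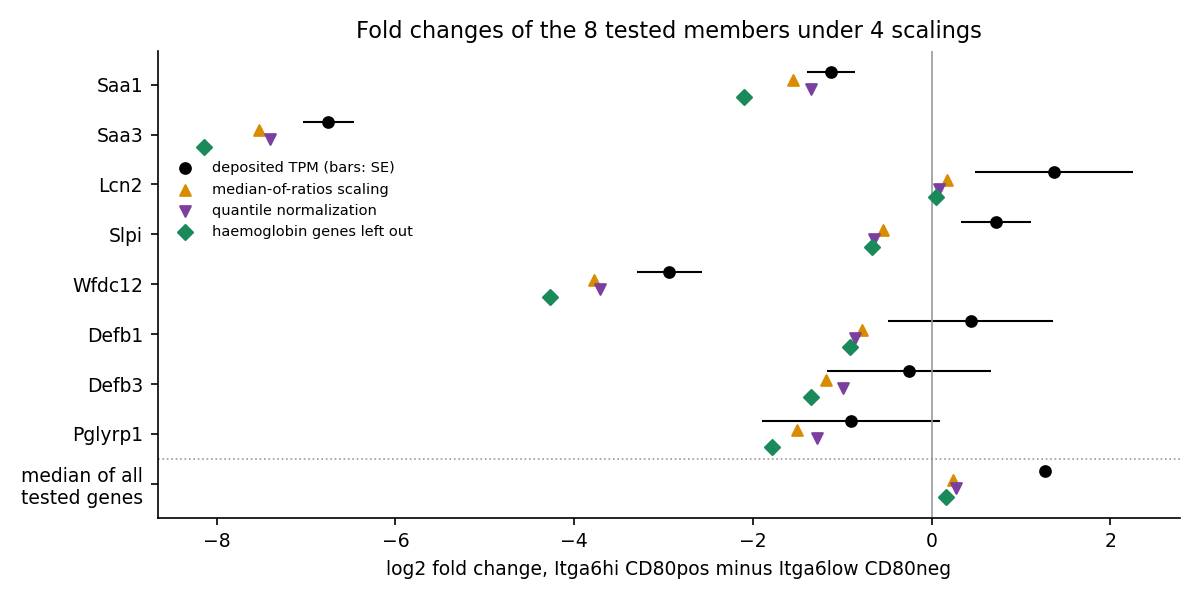
Log2 fold change of the 8 tested members, Itga6hi CD80pos minus Itga6low CD80neg, on the deposited TPM (black, bars are SE) and under 3 other scalings, with the median of all tested genes in the lowest line. Saa3, Wfdc12 and Saa1 lie below 0 under all 4, while Slpi and Defb1 lie above 0 on the deposited TPM only.

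The order of levels differed between the groups. In Itga6hi CD80pos, Slpi was highest and made up 69.4% and 48.2% of the summed TPM of the 10 members. Lcn2 and Defb1 followed and overlapped each other, then came Defb3, which overlapped neither, and Pglyrp1, whose range held Wfdc12 and Saa3. In Itga6low CD80neg, Saa3 was highest with 61.9% and 42.6% of the sum, against 0.324% and 0.158% in Itga6hi CD80pos. Slpi followed without overlap, and the ranges of Defb1, Lcn2, Wfdc12 and Defb3 overlapped one another. The sum itself was 145 and 292 TPM in Itga6hi CD80pos and 262 and 355 TPM in Itga6low CD80neg, which overlap. Of the 8 tested members, 5 (Lcn2, Slpi, Wfdc12, Defb1 and Pglyrp1) were higher in replicate 2 than in replicate 1 of both groups, as were 25.2% of all tested genes.

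Other acute-phase plasma proteins went both ways. Of 25 listed genes 9 were tested, 4 were lower and 3 higher in Itga6hi CD80pos, with a median log2 fold change of -1.25 against 1.27 for all genes. Of all tested genes 9.48% were called lower and 57.0% higher. Serpina3n, a proteinase inhibitor, had 0.222 and 0.363 TPM in Itga6hi CD80pos and 229.8 and 90.1 TPM in Itga6low CD80neg (log2 fold change -6.81, limma adjusted p = 0.00257). Lbp, which carries bacterial lipopolysaccharide, had 0.255 and 0.423 TPM in Itga6hi CD80pos and 71.1 and 65.4 TPM in Itga6low CD80neg (-5.69). Haptoglobin, Hp, which binds free haemoglobin, had 0.125 and 0.295 TPM in Itga6hi CD80pos and 61.0 and 50.3 TPM in Itga6low CD80neg (-5.55). The fourth lower gene was Cp, the copper protein ceruloplasmin (-3.92, adjusted p = 0.00347), named after its values were seen. Like Saa1 and Saa3, these 4 were under 1 TPM in both Itga6hi CD80pos libraries and passed the filter through the other group alone. The metallothioneins Mt2 and Mt1, which bind metal ions, were higher, with log2 fold changes of 2.93 and 2.74, as was Orm1, a plasma lipocalin, at 1.75. None of these 3 higher calls held under the other scalings, where 0 of the list were called higher and 4 or 5 lower. Liver genes such as Crp, Apcs, Fga, Fgb and Fgg (named after their values were seen) were below 0.3 TPM in all 4 libraries.

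Among 40 other antimicrobial genes 20 were tested, 4 were lower and 1 higher, with a median log2 fold change of -0.51. The shares over all tested genes were 9.48% lower and 57.0% higher, with a median of 1.27. The higher one was Wfdc2. Adm, a vasoactive peptide with antimicrobial action, had 10.7 and 4.11 TPM in Itga6hi CD80pos and 93.0 and 23.52 TPM in Itga6low CD80neg (-2.63, limma adjusted p = 0.0282, and 0.0544 with haemoglobin genes left out). Gsdmd, the pore-forming gasdermin, had 2.06 and 7.25 TPM in Itga6hi CD80pos and 18.4 and 21.7 TPM in Itga6low CD80neg (-2.06, adjusted p = 0.02004). For Lyz2, a lysozyme that marks myeloid cells, the values were 0.135 and 0 TPM in Itga6hi CD80pos and 4.78 and 2.33 TPM in Itga6low CD80neg (-2.04, adjusted p = 0.00823). Prtn3, a neutrophil proteinase that is also a binding partner of members, was the fourth, with 0.0640 and 0.229 TPM in Itga6hi CD80pos and 1.88 and 2.20 TPM in Itga6low CD80neg (-1.41, adjusted p = 0.00943). Lyz2 and Prtn3 passed the filter through the Itga6low CD80neg libraries alone, and Wfdc2 through the Itga6hi CD80pos libraries alone.

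Signals, receptors and transcription factors upstream of these genes differed in both directions. Of 42 listed 38 were tested, 14 were higher and 7 lower, with a median log2 fold change of 0.63. Among all tested genes 57.0% were called higher and 9.48% lower, and the median was 1.27. Il6 and Il1b, cytokines that induce acute-phase genes, were lower, with log2 fold changes of -5.34 and -4.41 (limma adjusted p = 0.00280 and 0.00669). Il1b passed the filter through Itga6low CD80neg alone, as did Tnfrsf1b, Tlr2 and Tlr4, also called lower. These genes had to differ in order to be tested. Il22ra1, called higher, passed through Itga6hi CD80pos alone. Tnfrsf1b, Tlr2, Tlr4 and Il22ra1 were named after their values were seen. Il1r1, the interleukin 1 receptor, had 2.14 and 2.85 TPM in Itga6hi CD80pos and 29.5 and 13.1 TPM in Itga6low CD80neg (-2.58, adjusted p = 0.00823). Cebpd, a C/EBP factor of the acute phase, was chosen after its values were seen and had 11.6 and 16.7 TPM in Itga6hi CD80pos and 51.9 and 37.7 TPM in Itga6low CD80neg (-1.60, adjusted p = 0.0147). Cebpb and Cebpa, chosen likewise, were not called, at 236 and 277 TPM against 98.5 and 190.1 TPM for Cebpb and 77.6 and 70.5 TPM against 26.1 and 45.6 TPM for Cebpa (adjusted p = 0.164 and 0.0614). Higher were Hif1a, the hypoxia factor, with 3.13, Il17rc, an interleukin 17 receptor chain, with 2.41, and Vdr, the vitamin D receptor, with 2.30. Higher calls numbered 1 or 2 under the other scalings and lower ones 6 to 8. Il17rc and Vdr were not among them, and Hif1a kept a higher call under all 3 (with haemoglobin genes left out, log2 fold change 1.77, adjusted p = 0.0243).

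Binding partners and receptors of the members were tested for 11 of 23 listed genes, with 2 higher, 2 lower and a median log2 fold change of 0.47. Over all tested genes 57.0% were higher and 9.48% lower, at a median of 1.27. Scarb1, a lipoprotein receptor that takes up serum amyloid A, had 24.2 and 16.8 TPM in Itga6hi CD80pos and 4.76 and 5.64 TPM in Itga6low CD80neg (1.78, limma adjusted p = 0.00910). Tnfrsf1a, a TNF receptor that Pglyrp1 can bind, had 131 and 141 TPM in Itga6hi CD80pos and 49.97 and 54.0 TPM in Itga6low CD80neg (1.37, adjusted p = 0.0213). Both calls were lost under the 3 other scalings. Lower were Prtn3, which passed the filter through Itga6low CD80neg alone, and Slc22a17, a lipocalin 2 receptor. Slc22a17 had 2.33 and 1.82 TPM in Itga6hi CD80pos and 4.43 and 4.90 TPM in Itga6low CD80neg (-0.89, adjusted p = 0.0370).

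**Figure D4:**
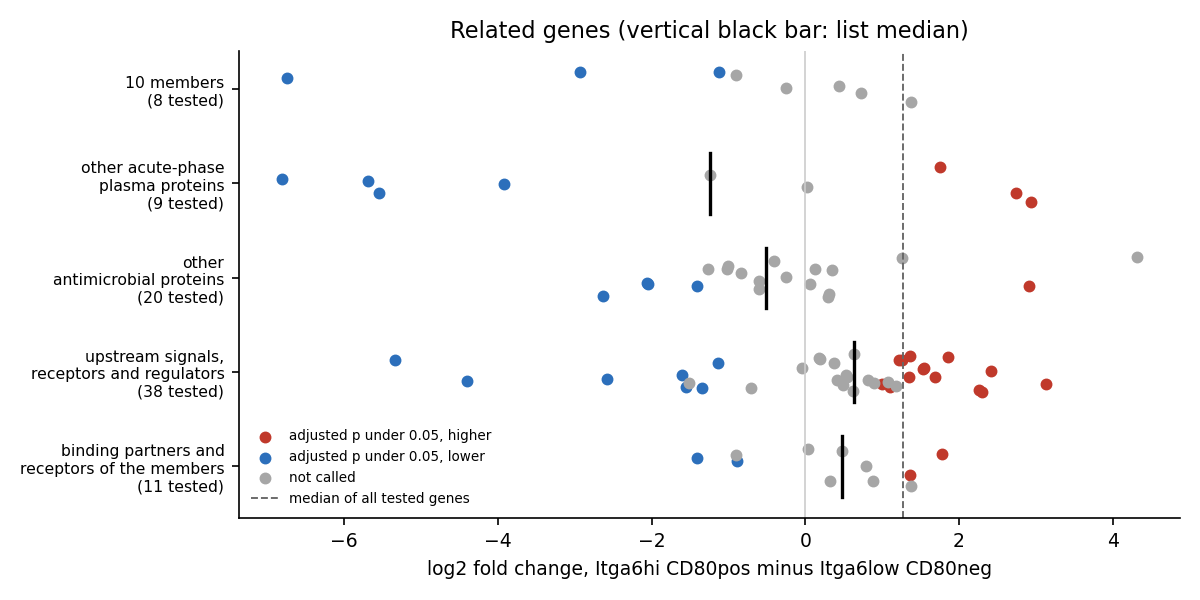
Log2 fold change of each tested gene (1 point per gene, Itga6hi CD80pos minus Itga6low CD80neg) for the members and 4 related lists, coloured by call. Black bars mark list medians (none is drawn for the members) and the dashed line the median of all tested genes at 1.27, to the right of all 4 list medians.

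Markers of fibroblasts and red blood cells moved with the members called lower. So did the far smaller sums of monocyte and macrophage, T and B cell, and mast cell markers. Fibroblast markers were lower in Itga6hi CD80pos for 15 of 16 tested, and summed to 105 and 149.96 TPM there against 11500.0 and 8095 TPM. Col3a1, a fibrillar collagen, had 2.22 and 2.56 TPM in Itga6hi CD80pos and 2963 and 2123 TPM in Itga6low CD80neg. Red blood cell markers were lower for 8 of 8 tested, and for the 4 tested with haemoglobin genes left out, led by Hbb-bs, a beta globin, at 80.996 and 22.4 TPM in Itga6hi CD80pos and 328205 and 222614 TPM in Itga6low CD80neg. Monocyte and macrophage markers summed to 15.4 and 12.6 TPM against 20.0 and 54.4 TPM. Adgre1, Csf1r, C1qa and C1qb were at most 1.78 TPM in any library. These genes were untested and lower in both Itga6hi CD80pos libraries. So were C1qc, Ms4a7, Ccr2, Itgam and Cx3cr1, named after their values were seen. Mrc1, Fcgr1 and Aif1, named likewise, were untested and overlapped. The highest of that list, Tyrobp, a signalling adaptor of myeloid cells, was lower (-3.70, limma adjusted p = 0.0112), having passed the filter through Itga6low CD80neg alone. Of 16 listed 4 were tested, with 2 lower (Tyrobp and Lyz2), also under the 3 other scalings, and 0 higher. The uncalled 2 were Cd68 and Cd14, named after their values were seen. Cd68 had 6.39 and 4.03 TPM in Itga6hi CD80pos and 1.44 and 3.89 TPM in Itga6low CD80neg. Cd14 had 7.79 and 7.14 TPM against 4.23 and 7.16 TPM. Keratinocyte markers were higher for 13 of 17 and lower for 1 on the deposited values (57.0% and 9.48% of all tested genes). Under median-of-ratios, quantile and haemoglobin-free scaling 7, 8 and 7 were higher and 1 lower. They summed to 84750 and 76296 TPM against 4716 and 14661 TPM. Krt14, the basal keratin, was the highest of them (log2 fold change 3.65, adjusted p = 0.0430), a call lost under median-of-ratios scaling (0.154) and with haemoglobin left out (0.0679). The lower one was Lor (loricrin, of the cornified layer), which, chosen after its values were seen, had 1.45 and 4.17 TPM in Itga6hi CD80pos and 44.7 and 56.1 TPM in Itga6low CD80neg. Endothelial, T and B cell, and mast cell markers summed to at most 25.9, 6.99 and 7.10 TPM in any library. Their highest members were Eng, Trac and Fcer1a. T and B cell sums were 0.436 and 0.354 TPM in Itga6hi CD80pos and 3.36 and 6.99 TPM in Itga6low CD80neg. Mast cell sums were 0.203 and 0.538 TPM against 1.22 and 7.10 TPM, and endothelial sums overlapped. Of 9 endothelial markers 3 were tested, 1 was lower (Eng) and 1 higher (Vwf, limma adjusted p = 0.0185). Vwf passed the filter through Itga6hi CD80pos alone. Under the 3 other scalings 0, 1 and 0 were higher and 1 lower. Untested Cdh5, Kdr, Tie1, Emcn and Cldn5 and uncalled Pecam1 were higher in both Itga6hi CD80pos libraries on deposited values, and Tek was lower. These genes and Vwf were named after their values were seen. Of 8 tested sebaceous and hair follicle markers 4 were higher and 1 lower, which became 2, 2 and 1 higher and 0 lower under the 3 other scalings. The highest, Fabp5, was not called (adjusted p = 0.118). Their part in the Wfdc12 and Saa1 differences was not tested either.

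**Figure D5:**
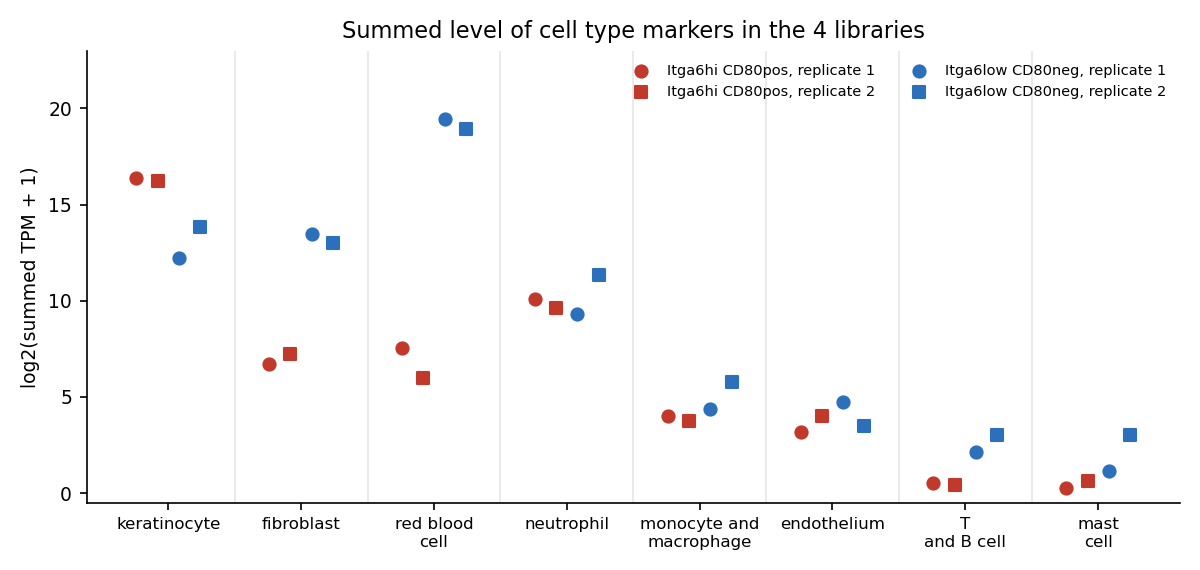
Summed TPM of the markers of 8 cell types in the 4 libraries, as log2(summed TPM + 1) (colours and shapes mark group and replicate). Fibroblast and red blood cell sums are higher in both Itga6low CD80neg libraries and keratinocyte sums in both Itga6hi CD80pos libraries. The far smaller monocyte and macrophage, T and B cell, and mast cell sums are also higher in both Itga6low CD80neg libraries. Neutrophil and endothelial sums overlap.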

How the data were processed

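PolyA RNA of 4 libraries was analysed, 2 per group. The authors deposited gene-level TPM, and the submitters' processing notes name kallisto (version 0.44.0) as tool and mm10 as build. The annotation, the step from transcripts to genes and any filter are not given in the sources used here. Of 55481 rows, the 13474 that reached 1 TPM in 2 or more libraries were tested. Rows named as ERCC spike-in RNAs are part of the 55481 and were not set apart in the filter, the fit or the scalings. The test was limma 3.58.1 in R 4.3.3 on log2(TPM + 1) (lmFit, eBayes with a trend). It was two-sided, with 2 residual and 3.33 prior degrees of freedom. The unit was TPM, so no count model was used. The fit was also run on simulated data with few changed genes and no overall shift. These data differ in both respects, so that run does not test the fit here. The members and gene lists were chosen with earlier results of these data known. Besides the 10 members, the text names the 3 called genes of each related list with the widest change per direction, the marker with the highest TPM of each cell type list, Itga6, Cd80, and genes said to be chosen after their values were seen. Saa4, Mpo, Elane, Ltf, Ngp, Ly6g, Adgre1, Csf1r, C1qa and C1qb were also named after their values were seen. An exact permutation test of 2 against 2 cannot reach 0.05, so none is given. Coordinates and 31-base words come from GENCODE M21 (GRCm38) and promoters from RefSeq GRCm38.p6. Alternatives were pseudocounts of 0.1 and 5, no filter, a mean of at least 5 TPM, 3 scalings, a replicate block, no trend, and each library left out. Median-of-ratios scaling used 16860 genes above 0 in all 4 libraries.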

Additional observations from a re-analysis of the deposited data

How the results depend on the processing

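Saa3, Wfdc12 and Saa1 had negative fold changes under every alternative in which they were tested, and lost their calls only under those named with them above. The number of members called lower, 3 on the deposited values, ran from 0 to 3 over the fits that each left out 1 library, and members called higher numbered 0 in all of these. A fit that leaves 1 library in a group assumes that it varies like the others. Among all genes, higher calls ran from 0 to 8227 and lower calls from 0 to 1237 over these fits. They ran from 0 to 3 and 0 to 4 for acute-phase plasma proteins, 0 to 2 and 0 to 6 for other antimicrobial genes, 0 to 16 and 0 to 8 for upstream genes, and 0 to 4 and 0 to 1 for binding partners. The 0 and low counts come without Itga6hi CD80pos replicate 1 (0 genes of the table called) or replicate 2 (353 higher and 174 lower).

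Replicate numbers are shared between the groups, but with 2 pairs they are only numbers: deviations from group means correlated at r = 0.109 over 13474 genes. With the number as a replicate block, calls were 8044 higher and 1452 lower. Lcn2 then passed as higher (adjusted p = 0.0188) and Pglyrp1 as lower (0.0338), so 1 member was higher and 4 lower. The Lcn2 and Pglyrp1 calls carry the limit given above for that fit. Higher calls became 3 for other antimicrobial genes and 1 for binding partners under that block.

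With no filter on low values 4564 genes were higher, upstream genes gave 7 higher and 4 lower, and antimicrobial genes and binding partners gave 0 lower. With a mean of at least 5 TPM, 613 genes were lower, with 2 antimicrobial, 4 upstream and 0 binding partner genes among them. At a pseudocount of 5, 2 antimicrobial genes were higher. Under median-of-ratios scaling, quantile normalization and haemoglobin left out, higher calls were 1372, 1448 and 1040 for all genes, 2, 2 and 1 for upstream genes, and 0 each for acute-phase plasma proteins and binding partners. Antimicrobial genes gave 7 and 8 lower under the first 2, and 0 higher under the third.

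The signs of 4 uncalled members turned. Slpi went to -0.54, -0.64 and -0.67 and Defb1 to -0.78, -0.85 and -0.91 under those 3 scalings. Defb1 was -0.22 without Itga6hi CD80pos replicate 2 and -0.83 without Itga6low CD80neg replicate 1, within a range of -0.83 to 1.70. Defb3 was 0.23 without Itga6hi CD80pos replicate 2 and 1.09 without Itga6low CD80neg replicate 2, within -1.59 to 1.09. Pglyrp1 was 0.48 without Itga6low CD80neg replicate 2, within -2.28 to 0.48. Lcn2 kept its sign, from 0.13 to 2.61 over the same fits. The cause was not tested. Depth is unknown, so genes listed at 0, such as Camp and Saa2, have no detection limit here.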
